A study of Mus musculus with 14 samples.

Results

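The tumour necrosis factor (TNF) superfamily consists of cytokines that act as trimers, most of them made as membrane proteins that can be shed, and of the receptors that bind them. Receptors that carry a death domain can recruit Tradd, Fadd and caspase-8, and most others bind TRAF adaptors. Both routes can lead to the transcription factor NF-kappaB. In the infarcted heart, TNF is known as a cytokine of infiltrating leukocytes and of stressed resident cells. The genes described here are Tnf, Lta, Ltb and every gene whose symbol starts with Tnfsf (ligands) or Tnfrsf (receptors). They were measured by 44 of the 55482 probes on the array that are not controls, and they comprise 34 of the 20614 named genes, 14 ligands and 20 receptors.

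The samples were taken from the border zone of the ventricle of male C57BL/6 mice, operated on at 8 weeks of age. A myocardial infarction (MI) was made by permanently tying off the left anterior descending coronary artery, and tissue was taken 3 days later (MI 3 days, 5 samples) or 14 days later (MI 14 days, 5 samples). Sham mice (4 samples) had the same operation with no ligation, and the time at which their hearts were taken is not given in the sources used here. The labels name no genetic change in any group. The labels do not say which sample came from which mouse, so the p-values measure only the spread between these samples.

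RNA was labelled with Cy3 and hybridised to 1-colour Agilent mouse arrays, 1 sample per array. Levels below are the log2 signal of a gene's brightest tested probe minus the 75th percentile of all probes on the same array, so that 0 is the level of that percentile, and levels of different genes are not set against each other. That percentile lay between 188.6 and 443 intensity units, and scanner output was used for 10 arrays (2 at MI 3 days, 4 at MI 14 days and 4 sham), with 54.8% to 66.1% of probes clearly above background. These 10 lay on 3 slides, each with samples of 2 or 3 groups. The number of arrays limits the precision. MI 14 days replicate 3 had the lowest mean correlation with its own group (0.981 across probes, against 0.986 to 0.992 for the other 13 arrays). Differences are log2 differences ± SE from limma, fitted over the 3 groups (n = 5, 5 and 4), and a gene was called at a Benjamini-Hochberg adjusted p under 0.05 over 32257 tested probes. Of the 34 genes, 27 passed the filter on dim probes, 10 ligands and 17 receptors. The remaining 7, Lta, Tnfsf4, Tnfsf11, Tnfsf18, Tnfrsf8, Tnfrsf13c and Tnfrsf17, were not well above background on all scanner arrays of any group and were not tested.

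The genes for Ltb, Tnf and Lta are neighbours on chromosome 17 with no other coding gene between them, and Tnfsf14 lies on the same chromosome. Ltb, Tnf and Tnfsf14 were all higher at MI 3 days than in sham, while Lta stayed below background in all 3 groups. The 250 bases upstream of each start site are shown for these 4 genes from RefSeq on GRCm38.p6, written 5′ to 3′ on the strand of the gene, with motif matches in capitals. The window of Ltb (chr17:35194257-35194506, plus strand) holds a match to the NF-kappaB consensus on its reverse strand, 87 to 78 bases before the start. The window of Tnf (chr17:35202008-35202257, minus strand) holds TATAAA 29 to 24 bases before the start, and that of Lta (chr17:35205352-35205601, minus strand) holds TATAAA 167 to 162 bases before it. The window of Tnfsf14 (chr17:57194182-57194431, minus strand) holds an AP-1 motif 160 to 154 bases before the start.
Ltb: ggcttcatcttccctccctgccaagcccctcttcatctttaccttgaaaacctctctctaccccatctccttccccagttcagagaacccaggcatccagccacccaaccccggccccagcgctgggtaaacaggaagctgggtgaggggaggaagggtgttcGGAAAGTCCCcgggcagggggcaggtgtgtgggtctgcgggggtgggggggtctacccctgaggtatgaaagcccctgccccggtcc
Tnf: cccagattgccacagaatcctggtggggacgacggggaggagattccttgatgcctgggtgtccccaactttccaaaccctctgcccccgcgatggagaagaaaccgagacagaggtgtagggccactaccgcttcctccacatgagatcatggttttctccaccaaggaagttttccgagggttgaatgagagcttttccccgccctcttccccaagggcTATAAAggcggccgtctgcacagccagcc
Lta: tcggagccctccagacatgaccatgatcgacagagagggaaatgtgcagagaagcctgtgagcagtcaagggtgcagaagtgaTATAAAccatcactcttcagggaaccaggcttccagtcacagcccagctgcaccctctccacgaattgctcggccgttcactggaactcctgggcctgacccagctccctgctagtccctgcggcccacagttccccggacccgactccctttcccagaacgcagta
Tnfsf14: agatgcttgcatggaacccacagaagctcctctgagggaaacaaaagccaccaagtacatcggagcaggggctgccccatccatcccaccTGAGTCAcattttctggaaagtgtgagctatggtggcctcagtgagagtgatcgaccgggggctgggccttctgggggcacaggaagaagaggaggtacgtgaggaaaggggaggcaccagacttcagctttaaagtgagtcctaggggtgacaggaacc

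Windows were available for 27 of the 34 genes, which are not the same 27 that were tested. The NF-kappaB consensus, searched on both strands, occurred in 3 of them (Ltb, Tnfrsf8 and Tnfrsf9, 11.1%) and in 4.46% of all 27025 genes with a window. The AP-1 motif, TGACTCA or TGAGTCA on either strand, occurred in 4 (Tnfrsf8, Tnfrsf9, Tnfsf13b and Tnfsf14, 14.8%) and in 5.16% of all genes. TATAAA occurred in 6 (Lta, Tnf, Tnfrsf17, Tnfrsf23, Tnfsf11 and Tnfsf18, 22.2%) and in 14.3% of all genes. Of the 11 genes with any of these matches, 5 (Lta, Tnfrsf8, Tnfrsf17, Tnfsf11 and Tnfsf18) were among the 7 that were not tested. These matches describe the letters of the windows only.

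At 3 days after infarction most tested members were higher than in sham. Of the 27 genes, 17 rose and 4 fell, while 29.8% of all 14867 tested genes were called higher and 40.5% lower. Among the 17, Tnf and Tnfsf8 entered the test only through MI 3 days, the group with 2 scanner arrays, where they were high. Among the 4, Tnfrsf19 entered it only through sham, where it was high. Among the ligands 6 of 10 rose (Tnf, Ltb, Tnfsf8, Tnfsf9, Tnfsf14 and Tnfsfm13) and 2 fell (Tnfsf10 and Tnfsf13b). Among the receptors 11 of 17 rose and 2 fell (Tnfrsf19 and Tnfrsf25). The median difference of the 27 genes was 0.83, against -0.15 over all tested genes. At least 2-fold differences made up 12 of the increases and 2 of the decreases, while 13.9% of all tested genes were called at least 2-fold higher and 14.3% at least 2-fold lower. In 20 of the 27 genes the difference was called and no MI 3 days sample overlapped a sham sample, as it was in 62.1% of all tested genes. All 21 called genes kept their direction within slide 2, and 20 did within slide 3, each with 1 MI 3 days array against 1 sham array. These arrays are part of the fit that made the calls, so this is no separate test. The share over all genes was not computed. With slide as a block, on the 10 scanner arrays, 15 members were called higher and 2 lower, beside 23.2% and 32.1% of all genes. The calls lost were those of Tnfsf14, Tnfrsf4, Tnfrsf25 and Tnfsf13b (adjusted p of 0.0513 to 0.327). Without the block the same 10 arrays gave 16 higher and 3 lower, beside 25.3% and 34.7% of all genes. The calls of Tnfrsf4, Tnfrsf25 and Tnfsf13b were lost there already.

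The size of many differences depended on how the signal was corrected. Normexp correction of the median signal was run on the same 10 arrays, with an offset of 50 added to every signal. An added constant lessens the ratio between dim signals. In this setting no called difference changed direction. The fold of 11 of the 21 members called at MI 3 days was smaller by more than 1.5 times than in the main fit on 14 arrays. The parts of the correction, the offset and the smaller set of arrays in this were not tested apart. The corrected log2 differences from sham were 1.01 for Tnfsf14, 1.30 for Tnfsf9, 1.23 for Ltb, 0.36 for Tnf and 0.15 for Tnfsf8 among the ligands. Among the receptors they were 1.05 for Tnfrsf1b, 0.97 for Tnfrsf11b, 0.76 for Tnfrsf26, 0.56 for Tnfrsf22, 0.36 for Tnfrsf18 and -0.94 for Tnfrsf19. Under this correction 13 members were called higher and 3 lower, beside 22.7% and 31.3% of all genes. Against the main fit, the calls lost were those of Tnfsf8, Tnfrsf18, Tnfrsf4, Tnfrsf13b, Tnfrsf25 and Tnfsf13b, and Tnfrsf14 was newly called lower (-0.51, adjusted p = 0.00881). The same 10 arrays without this correction gave 16 members higher and 3 lower, beside 25.3% and 34.7% of all genes. There the calls of Tnfrsf4, Tnfrsf25 and Tnfsf13b were lost too, and Tnfrsf14 was already called lower. The folds given below are those without this correction.

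**Figure D1:**
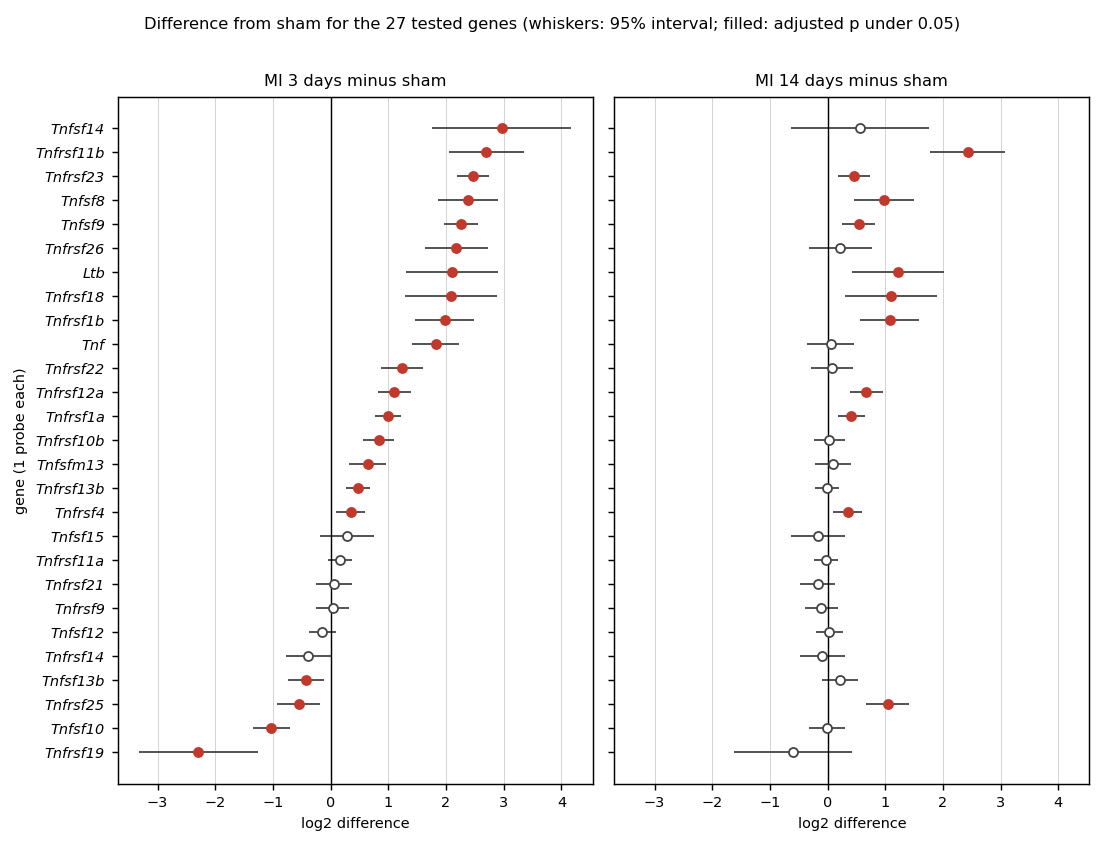
Log2 difference from sham (horizontal axis) of the 27 tested genes at MI 3 days (left) and MI 14 days (right), as points with 95% intervals, ordered by the difference at 3 days. Filled points passed an adjusted p of 0.05: 17 higher and 4 lower at 3 days, and 11 higher and 0 lower at 14 days.

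Cell type markers moved with these differences, and their part in them was not tested. At MI 3 days 6 of 7 measured macrophage markers and 5 of 6 neutrophil markers rose (median 3.46 for neutrophils), and all 8 cardiomyocyte markers fell (median -1.24). Signal summed over the markers, in units of the array's 75th percentile, was 2069 to 2390 at MI 3 days, 3389 to 4866 at MI 14 days and 3644 to 4546 in sham for cardiomyocytes. The macrophage sums overlapped, at 168 to 220, 192 to 220 and 170 to 224 in the same order of groups. The bright Itgam probe, which was lower at MI 3 days (-0.75), dominates that sum. Neutrophil sums were 192 to 272 at MI 3 days, 214 to 238 at MI 14 days and 208 to 228 in sham, again through 1 bright probe (Csf3r). Fibroblast sums were 393 to 498 at MI 3 days (4 of 6 markers higher than in sham and 1 lower), 676 to 886 at MI 14 days and 335 to 355 in sham. Smooth muscle sums were 52.4 to 83.7, 23.7 to 39.4 and 26.1 to 41 in the same order, and 3 of 4 mast cell markers were lower at MI 3 days than in sham. Mmp8, a neutrophil collagenase, was below background on every scanner array at MI 14 days and in sham. Of the T and NK cell markers 2 rose and 2 fell among 5 tested, and of the B cell markers 1 rose and 1 fell among 5. In bulk tissue, fewer cells of a type and less RNA per cell cannot be told apart.

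Tnf, the founding cytokine of the family, was higher than in sham at 3 days and was not called at 14 days. Tnf lay at -2.65, -2.40, -2.46, -2.66 and -2.52 in the MI 3 days samples, at -3.91, -4.91, -4.29, -3.83 and -4.57 in the MI 14 days samples and at -4.38, -4.42, -4.09 and -4.54 in the sham samples. All 5 MI 3 days samples lay above every sample of the other groups. Tnf was well above background on 2 of 2 scanner arrays at MI 3 days, on 1 of 4 at MI 14 days and on 0 of 4 in sham. Without normexp correction it was at least 3.4-fold higher at MI 3 days than in sham (fitted difference 1.82 ± 0.19 (adjusted p = 1.43e-06)). A bound sets the mean of the higher group against the scanner arrays of the lower one. Each of these arrays counts with its own signal, or with the lowest signal that counted as above background if that is higher. Between MI 14 days and sham, where 1 of 8 scanner arrays measured it, the fit gave an adjusted p of 0.852, and no fold is given. The fitted difference between MI 14 days and MI 3 days was -1.77 ± 0.18 (adjusted p = 2.43e-06), and its size rests on MI 14 days levels that were mostly below background. With normexp correction the difference at MI 3 days was 0.36 (adjusted p = 0.0381), smaller than the bound. That between the MI times was then -0.30 (adjusted p = 0.0944). Lta, a secreted relative of Tnf that binds the same receptors, was below background on all 10 scanner arrays.

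Ltb, which forms a membrane trimer with lymphotoxin alpha (Lta) that binds the receptor Ltbr, rose at both times. Ltb lay at -0.48, 0.08, 0.10, -0.38 and -0.38 in the MI 3 days samples, at -1.96, -1.42, -0.10, -0.53 and -1.41 in the MI 14 days samples and at -2.48, -1.66, -3.23 and -1.85 in the sham samples. The MI 3 days and sham samples did not overlap, and MI 14 days replicate 1 lay below sham replicates 2 and 4. The difference from sham was 2.10 ± 0.37 (adjusted p = 0.000207) at MI 3 days, a 4.28-fold increase, and 1.22 ± 0.37 (adjusted p = 0.022) at MI 14 days, a 2.33-fold increase. The 14-day call was lost when MI 14 days replicate 3 or 4, or sham replicate 1 or 3, was left out (adjusted p up to 0.0753).

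The ligands Tnfsf14, Tnfsf9 and Tnfsf8, with roles in T cell costimulation, were all higher at 3 days than in sham. Tnfsf14 lay at -0.93, -0.88, -0.04, -1.23 and -1.34 in the MI 3 days samples, at -3.77, -4.28, -0.86, -3.78 and -3.75 in the MI 14 days samples and at -4.18, -3.10, -4.07 and -4.04 in the sham samples. Tnfsf14, also called LIGHT, was high in all 5 MI 3 days samples and in MI 14 days replicate 3, which at -0.86 lay within the MI 3 days range. It was 7.79-fold higher at MI 3 days than in sham (2.96 ± 0.56 (adjusted p = 0.000356)) and 5.28-fold lower at MI 14 days than at MI 3 days (-2.40 ± 0.53 (adjusted p = 0.00158)). With slide as a block, on the 10 arrays with scanner output, the difference from sham was 2.49 with an adjusted p of 0.0513, and that between the MI times was -1.81 with an adjusted p of 0.178. With normexp correction on these arrays there was also no call between the MI times (-0.59, adjusted p = 0.103). That call was already lost on the 10 arrays with neither the block nor the correction.

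Tnfsf9 lay at -0.26, -0.02, -0.11, -0.34 and -0.25 in the MI 3 days samples, at -2.0, -2.16, -1.65, -2.04 and -1.75 in the MI 14 days samples and at -2.34, -2.18, -2.81 and -2.50 in the sham samples. No sample of Tnfsf9, the ligand of Tnfrsf9, overlapped between any of the groups in this order of levels. Its difference from sham was 2.26 ± 0.14 (adjusted p = 1.27e-08) at MI 3 days, a 4.79-fold increase, and 0.54 ± 0.14 (adjusted p = 0.00822) at MI 14 days. Tnfsf8 lay at -3.65, -3.10, -3.20, -3.84 and -3.45 in the MI 3 days samples, at -4.50, -5.49, -4.41, -5.05 and -4.81 in the MI 14 days samples and at -6.12, -5.23, -6.18 and -5.78 in the sham samples. Tnfsf8, the CD30 ligand, was well above background on the 2 scanner arrays at MI 3 days and on none at MI 14 days or in sham. It was at least 1.87-fold higher at MI 3 days than in sham (2.38 ± 0.24 (adjusted p = 1.32e-06)) and at least 1.62-fold lower at MI 14 days than at MI 3 days. With normexp correction its difference at 3 days was 0.15 (adjusted p = 0.451), smaller than the bound. Between MI 14 days and sham, both below background, the fit gave an adjusted p of 0.0078, and no fold is given.

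**Figure D2:**
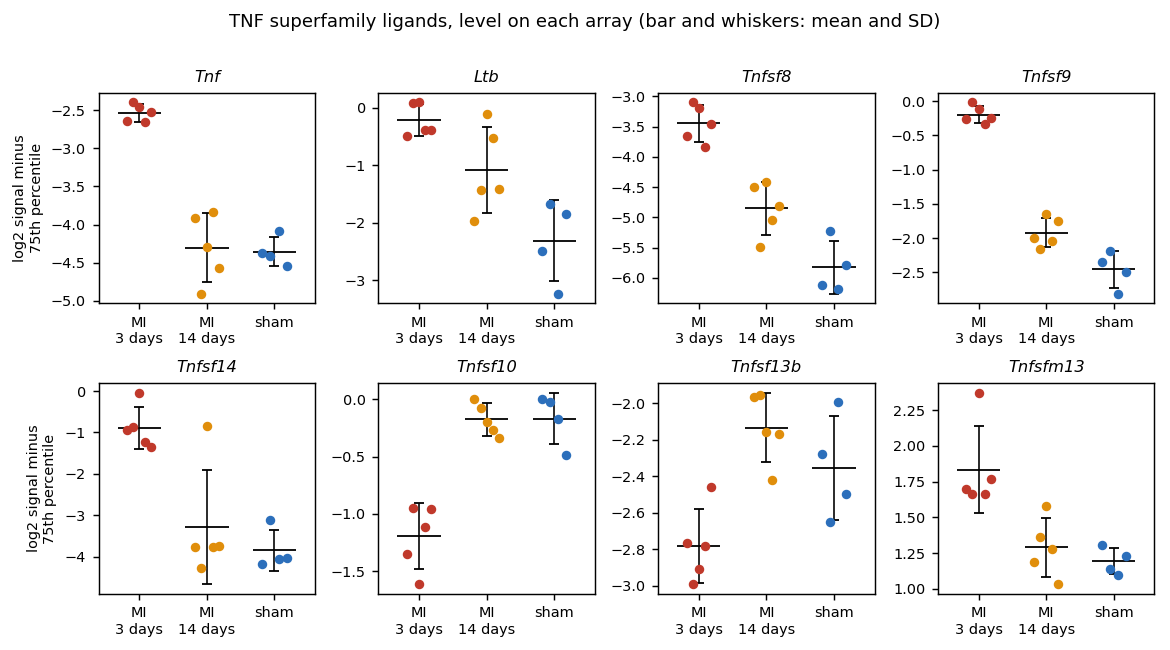
Level of 8 ligands on each array (vertical axis, log2 signal relative to the 75th percentile of its array, a separate scale per gene) in the MI 3 days, MI 14 days and sham samples, with bars and whiskers for mean and SD. Tnf, Tnfsf9 and Tnfsf8 have all 5 MI 3 days samples above every other sample, and Tnfsf10 has them all below.

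Tnfsf10, the death ligand TRAIL, went the other way. Tnfsf10 lay at -1.35, -0.95, -1.61, -1.11 and -0.95 in the MI 3 days samples, at 0.01, -0.08, -0.20, -0.27 and -0.34 in the MI 14 days samples and at 0.00, -0.02, -0.17 and -0.49 in the sham samples. The MI 3 days samples were all lower than every other sample, and the MI 14 days and sham samples had overlapping ranges. Tnfsf10 fell by 1.03 at MI 3 days relative to sham (SE 0.15, adjusted p = 3.07e-05) and was 1.02 ± 0.14 (adjusted p = 3.34e-05) higher at MI 14 days than at MI 3 days. Tnfsf13b, the B cell survival factor BAFF, was at -2.99 to -2.46 at MI 3 days, -2.42 to -1.95 at MI 14 days and -2.65 to -1.99 in sham. Its decrease at 3 days (-0.43 ± 0.15 (adjusted p = 0.0197)) came with overlapping samples, was lost without sham replicate 3 (adjusted p = 0.0755), and did not keep its direction within slide 3. Its level at MI 14 days was higher than at MI 3 days by 0.65 ± 0.14 (adjusted p = 0.00125), with no overlap.

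The remaining ligands moved little. Tnfsfm13 stands for transcripts that run from Tnfsf12 into Tnfsf13, and its brighter probe rose by 0.64 ± 0.15 (adjusted p = 0.00166) at MI 3 days. Its other probe, at -1.72 at MI 3 days, -1.90 at MI 14 days and -1.67 in sham, did not pass the test (difference -0.05). Tnfsf12, the cytokine TWEAK, differed from sham by -0.14 ± 0.11 (adjusted p = 0.262) at MI 3 days and 0.03 ± 0.11 (adjusted p = 0.862) at MI 14 days. Tnfsf15, the ligand of Tnfrsf25, differed by 0.28 ± 0.22 (adjusted p = 0.268) and -0.17 ± 0.22 (adjusted p = 0.587). Neither passed the test in any comparison of the main fit, with 95% intervals at 3 days of -0.37 to 0.09 for Tnfsf12 and -0.18 to 0.74 for Tnfsf15. The other tested probe of Tnfsf12 gave 0.29 at MI 3 days (adjusted p = 0.0854, 95% interval -0.01 to 0.59).

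Both receptors of Tnf were higher after infarction at both times. Tnfrsf1a is the death-domain receptor found on most cells. Tnfrsf1a lay at 3.96, 4.17, 4.35, 4.17 and 4.22 in the MI 3 days samples, at 3.45, 3.47, 3.84, 3.66 and 3.52 in the MI 14 days samples and at 3.29, 3.09, 3.0 and 3.34 in the sham samples. The 3 groups did not overlap, and Tnfrsf1a was 1.99-fold higher at MI 3 days (1.0 ± 0.11 (adjusted p = 2.3e-06)) and 1.33-fold higher at MI 14 days (0.41 ± 0.11 (adjusted p = 0.0106)) than in sham. A further probe of the gene gave 1.04 and 0.72.

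Tnfrsf1b lay at -0.18, -0.06, 0.22, -0.43 and -0.18 in the MI 3 days samples, at -1.01, -1.15, -0.19, -1.06 and -1.73 in the MI 14 days samples and at -2.15, -2.38, -1.76 and -2.13 in the sham samples. Tnfrsf1b, the TNF receptor without a death domain that is abundant on leukocytes, was higher in all MI samples than in any sham sample. Its difference from sham was 1.98 ± 0.24 (adjusted p = 6.21e-06) at MI 3 days, a 3.94-fold increase, and 1.08 ± 0.24 (adjusted p = 0.00387) at MI 14 days, a 2.11-fold increase. MI 14 days replicate 3 lay within the MI 3 days range, and the other 4 MI 14 days samples lay below it.

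Osteoprotegerin, the secreted decoy receptor of the ligands Tnfsf11 and Tnfsf10 that is encoded by Tnfrsf11b, showed the largest difference from sham at 14 days. Tnfrsf11b lay at -1.45, -1.40, -1.28, -1.49 and -1.04 in the MI 3 days samples, at -1.80, -2.09, -0.53, -1.18 and -2.39 in the MI 14 days samples and at -4.11, -4.32, -3.58 and -4.12 in the sham samples. All MI samples lay above all sham samples, and the MI 14 days samples spanned a wider range that covered the MI 3 days samples. Tnfrsf11b was 6.5-fold higher at MI 3 days (2.70 ± 0.30 (adjusted p = 3.04e-06)) and 5.39-fold higher at MI 14 days (2.43 ± 0.30 (adjusted p = 9.23e-05)) than in sham. In sham it was well above background on 3 of 4 arrays. With normexp correction the differences were smaller, 0.97 at MI 3 days and 0.99 (adjusted p = 0.00195) at MI 14 days. The MI times did not differ past the threshold (-0.27 ± 0.28 (adjusted p = 0.437), 95% interval -0.88 to 0.34). Of the fibroblast markers, 6 of 6 were also higher at MI 14 days than in sham (median 1.52), with summed signals of 676 to 886 at MI 14 days and 335 to 355 in sham, and their part in this result was not tested.

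Tnfrsf12a, the TWEAK receptor Fn14, was higher at both times while its ligand Tnfsf12 did not pass the test. Tnfrsf12a lay at 5.98, 5.91, 5.75, 6.03 and 5.91 in the MI 3 days samples, at 5.21, 5.41, 5.80, 5.76 and 5.24 in the MI 14 days samples and at 4.88, 4.78, 4.60 and 4.98 in the sham samples. No MI sample overlapped the sham range. The difference from sham was 1.10 ± 0.13 (adjusted p = 6.21e-06) at MI 3 days and 0.67 ± 0.13 (adjusted p = 0.00198) at MI 14 days.

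Tnfrsf26, Tnfrsf22 and Tnfrsf23 lie next to each other on chromosome 7. Tnfrsf22 and Tnfrsf23 are mouse decoy receptors of Tnfsf10. Tnfrsf23 lay at 2.24, 2.06, 2.17, 2.07 and 1.98 in the MI 3 days samples, at 0.12, -0.16, 0.57, 0.06 and -0.12 in the MI 14 days samples and at -0.40, -0.34, -0.47 and -0.24 in the sham samples. Tnfrsf23 was 5.51-fold higher at MI 3 days than in sham (2.46 ± 0.13 (adjusted p = 4.44e-09)), and its MI 14 days samples lay between the other groups without overlap (0.45 ± 0.13 (adjusted p = 0.0161) against sham). Tnfrsf22 lay at -1.23, -1.59, -1.11, -1.50 and -1.38 in the MI 3 days samples, at -2.82, -2.73, -2.22, -2.77 and -2.08 in the MI 14 days samples and at -2.90, -2.60, -2.47 and -2.44 in the sham samples. Tnfrsf26 lay at -1.57, -1.71, -1.19, -1.62 and -1.61 in the MI 3 days samples, at -3.08, -3.89, -2.83, -3.34 and -4.36 in the MI 14 days samples and at -4.03, -3.49, -3.71 and -3.65 in the sham samples. Both genes were high in every MI 3 days sample, with MI 14 days samples spread around the sham samples. Tnfrsf22 rose by 1.24 ± 0.17 (adjusted p = 1.96e-05) and Tnfrsf26 by 2.18 ± 0.25 (adjusted p = 4.64e-06) at MI 3 days, and neither passed the test at MI 14 days (0.08 ± 0.17 (adjusted p = 0.752) and 0.22 ± 0.25 (adjusted p = 0.547)). Second probes of Tnfrsf22 and Tnfrsf23 gave 1.91 and 2.12 at 3 days, both past the threshold, and 0.66 (adjusted p = 0.115) and 0.86 (adjusted p = 0.141) at 14 days, so the 14-day call of Tnfrsf23 was made by 1 of its 2 tested probes. The 3 genes are related in sequence, and cross-hybridisation between their probes was not tested.

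Tnfrsf10b, the mouse death receptor of Tnfsf10, rose at 3 days while its ligand fell. Tnfrsf10b lay at 0.47, 0.66, 0.45, 0.51 and 0.40 in the MI 3 days samples, at -0.72, -0.29, 0.05, -0.30 and -0.24 in the MI 14 days samples and at -0.33, -0.27, -0.45 and -0.28 in the sham samples. The MI 3 days samples lay above all others, and the MI 14 days samples spanned the sham range. The difference from sham was 0.83 ± 0.12 (adjusted p = 4.16e-05) at MI 3 days and 0.03 ± 0.12 (adjusted p = 0.872) at MI 14 days. Thus Tnfsf10 was lower at MI 3 days, and its 4 measured receptors (Tnfrsf10b, Tnfrsf11b, Tnfrsf22 and Tnfrsf23) were higher.

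Tnfrsf18, the T cell receptor GITR, was low and variable in sham. Tnfrsf18 lay at -2.44, -2.89, -2.09, -2.67 and -2.58 in the MI 3 days samples, at -3.63, -3.56, -3.19, -3.60 and -3.62 in the MI 14 days samples and at -4.62, -3.60, -6.13 and -4.11 in the sham samples. MI 3 days samples were above all others, and the MI 14 days samples lay above 3 of the 4 sham samples, with sham replicate 2 inside their range. Tnfrsf18 was well above background on 2 of 4 sham arrays. The difference from sham was 2.08 ± 0.37 (adjusted p = 0.000215) at MI 3 days and 1.10 ± 0.37 (adjusted p = 0.0363) at MI 14 days. With each sham array set no lower than the lowest signal that counted as above background, it was at least 2.96-fold higher at MI 3 days. At MI 14 days it was at least 1.49-fold higher. With normexp correction the differences were 0.36 and 0.21, both smaller than these bounds. The 14-day call was lost on leaving out any of 6 of the 14 arrays (MI 14 days replicates 1 to 4, sham replicates 1 and 3), with adjusted p up to 0.0775.

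**Figure D3:**
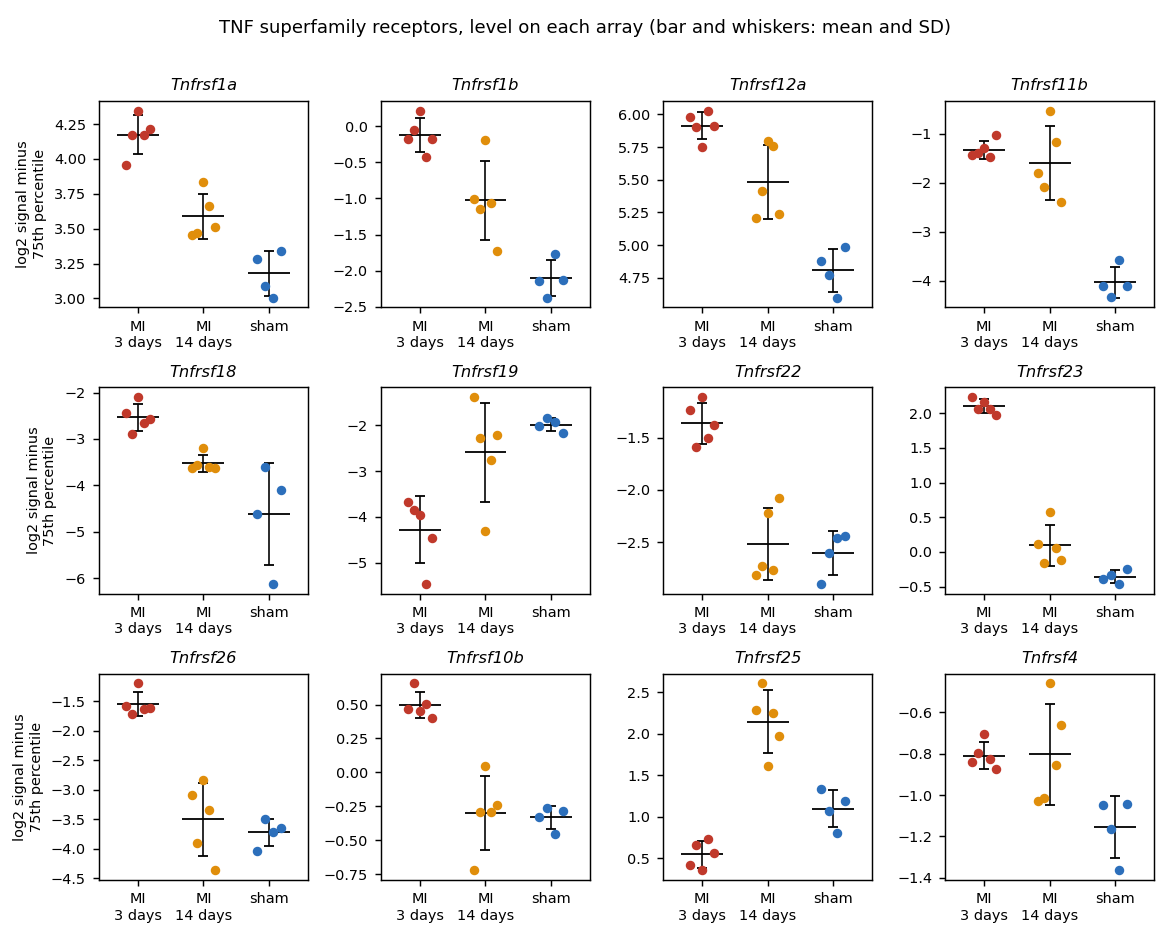
Level of 12 receptors on each array (vertical axis, log2 signal relative to the 75th percentile of its array, a separate scale per gene) in the MI 3 days, MI 14 days and sham samples, with bars and whiskers for mean and SD. Tnfrsf11b is high in both MI groups, Tnfrsf19 is low at MI 3 days, and Tnfrsf25 is lowest at MI 3 days and highest at MI 14 days.

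Tnfrsf19, an orphan receptor also called TROY, had the largest of the 4 decreases at MI 3 days against sham. Tnfrsf19 lay at -3.67, -3.84, -3.97, -5.47 and -4.47 in the MI 3 days samples, at -1.38, -2.28, -4.30, -2.77 and -2.22 in the MI 14 days samples and at -2.01, -1.84, -1.93 and -2.17 in the sham samples. Every MI 3 days sample was below every sham sample, and MI 14 days replicate 3 lay within the MI 3 days range while the other 4 lay above it. Tnfrsf19 was 4.9-fold lower at MI 3 days than in sham (-2.29 ± 0.48 (adjusted p = 0.000796)) and differed from sham by -0.60 ± 0.48 (adjusted p = 0.364) at MI 14 days. It entered the test only through sham, where it was high on all 4 arrays. At MI 3 days it was well above background on 1 of 2 scanner arrays, so the size of the 3-day difference rests partly on dim signals. With normexp correction that difference was -0.94 (adjusted p = 0.000415). The other probe of Tnfrsf19 was too dim to test.

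Tnfrsf25, the death receptor that binds Tnfsf15, was called in opposite directions at the 2 times. Tnfrsf25 lay at 0.42, 0.66, 0.36, 0.74 and 0.56 in the MI 3 days samples, at 2.29, 2.61, 1.61, 2.25 and 1.97 in the MI 14 days samples and at 1.33, 1.07, 0.81 and 1.20 in the sham samples. The 3 groups did not overlap. Tnfrsf25 was 1.47-fold lower at MI 3 days (-0.55 ± 0.17 (adjusted p = 0.0126)) and 2.06-fold higher at MI 14 days (1.04 ± 0.17 (adjusted p = 0.000685)) than in sham, and 3.02-fold higher at MI 14 days than at MI 3 days (1.60 ± 0.16 (adjusted p = 2.96e-06)). With slide as a block the 3-day difference was -0.31 (adjusted p = 0.277), and the 14-day one was 0.97 (adjusted p = 0.0202).

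Tnfrsf4 lay at -0.84, -0.79, -0.71, -0.83 and -0.88 in the MI 3 days samples, at -1.03, -1.02, -0.46, -0.86 and -0.66 in the MI 14 days samples and at -1.05, -1.16, -1.36 and -1.04 in the sham samples. Tnfrsf4, the T cell costimulator OX40, was above the sham samples in every MI sample, by 0.35 ± 0.12 (adjusted p = 0.0186) at MI 3 days and 0.35 ± 0.12 (adjusted p = 0.0342) at MI 14 days. Both are small differences, the first lost without sham replicate 3 (adjusted p = 0.0662) and the second without any of 4 arrays, MI 14 days replicates 3 and 5 and sham replicates 2 and 3 (adjusted p up to 0.107). Tnfrsf13b, also called TACI and a receptor of BAFF, rose by 0.48 ± 0.10 (adjusted p = 0.000577) at MI 3 days on its brighter probe, while its other probe gave -0.28 (adjusted p = 0.623). The mean of the 2 probes differed by 0.10 (adjusted p = 0.735).

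Receptors that passed the test in no comparison of the main fit were Tnfrsf9, Tnfrsf11a, Tnfrsf14 and Tnfrsf21. Tnfrsf9, the T cell costimulator that binds Tnfsf9, lay at 2.19 to 2.59 at MI 3 days, 1.89 to 2.43 at MI 14 days and 2.18 to 2.48 in sham. Its difference at 3 days had a 95% interval of -0.26 to 0.32. Tnfrsf11a, the receptor of Tnfsf11 known from osteoclasts, had intervals of -0.05 to 0.37 at MI 3 days and -0.24 to 0.19 at MI 14 days. Tnfrsf14, a receptor of Tnfsf14 on lymphocytes, differed by -0.39 ± 0.18 (adjusted p = 0.0773) at MI 3 days. It was called lower on the 10 scanner arrays alone (-0.70, adjusted p = 0.0205), with normexp correction (-0.51, adjusted p = 0.00881) and without MI 3 days replicate 2. With slide as a block it was not called (-0.61, adjusted p = 0.078). Tnfrsf21, a death receptor, had an interval of -0.25 to 0.37 at 3 days.

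Ligands and receptors that bind each other were therefore called together in some pairs and not in others at MI 3 days. Tnf and both of its receptors were higher. Ltb and Tnfsf14 were higher together with their shared receptor Ltbr, which differed by 0.55 ± 0.09 (adjusted p = 0.000133). Tnfrsf14 did not pass the test in the main fit and was called lower under some alternatives. Tnfsf9 was higher without a called change of Tnfrsf9, and Tnfrsf12a was higher without one of Tnfsf12. For Tnfsf8 the receptor Tnfrsf8, for Tnfrsf18 the ligand Tnfsf18, for Tnfrsf4 the ligand Tnfsf4 and for Tnfrsf11b the ligand Tnfsf11 were too dim to test.

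At MI 14 days 11 of the 27 genes were higher than in sham and 0 were lower, while 15.9% of all tested genes were called higher and 24.2% lower. Scaled by the tested probes alone, the same 11 members were called, and the shares of all genes were 19.6% higher and 17.7% lower. The 11 were the ligands Ltb, Tnfsf8 and Tnfsf9 and the receptors Tnfrsf1a, Tnfrsf1b, Tnfrsf4, Tnfrsf11b, Tnfrsf12a, Tnfrsf18, Tnfrsf23 and Tnfrsf25. Tnfsf8 entered the test through MI 3 days alone and was below background on every scanner array at MI 14 days and in sham, so that 10 of the 11 calls rest on a measured signal in at least 1 of the groups. The median difference of the 27 genes was 0.22, against -0.08 over all genes. On the 10 scanner arrays alone 9 calls were left, without Ltb and Tnfrsf18, and 13.9% of all genes were called higher. With slide as a block on these 10 arrays 3 calls were left (Tnfrsf11b, Tnfrsf25 and the dim Tnfsf8), and 8.33% of all genes were called higher. The 8 others had adjusted p of 0.0527 (Tnfsf9) to 0.19 (Ltb). All 11 kept their direction within slide 1 (1 MI 14 days and 2 sham arrays) and within slide 3 (3 and 1). These arrays are part of the fit that made the calls, so this is no separate test. With normexp correction 7 calls were left, without Tnfsf8, Tnfsf9, Tnfrsf4 and Tnfrsf18, beside 11.7% of all genes called higher.

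The comparison of MI 14 days with MI 3 days asks which members had moved between the times. At MI 14 days 15 of the 27 genes were lower than at MI 3 days and 4 were higher, while 26.9% of all tested genes were called lower and 33.6% higher. Among the 15, Tnf and Tnfsf8 entered the test only through MI 3 days, where they were high. The 4 that were higher were Tnfrsf19 (1.69 ± 0.45 (adjusted p = 0.00583)), Tnfrsf25, Tnfsf10 and Tnfsf13b. Of these, Tnfrsf19 entered the test only through sham. The decreases included those of Tnfrsf23 (-2.01 ± 0.12 (adjusted p = 2.96e-08)), Tnfrsf26 (-1.96 ± 0.24 (adjusted p = 1.39e-05)) and Tnfsf9 (-1.72 ± 0.13 (adjusted p = 1.74e-07)), and those of Tnfsf14 and Tnf given above. For Tnfsf14 the groups overlapped through MI 14 days replicate 3. Smaller decreases were those of Tnfrsf1a (-0.59 ± 0.10 (adjusted p = 0.000263)), Tnfrsf1b (-0.90 ± 0.22 (adjusted p = 0.00375)) and Tnfrsf12a (-0.43 ± 0.13 (adjusted p = 0.00983)). Ltb (-0.87 ± 0.35 (adjusted p = 0.0474)) and Tnfrsf18 (-0.99 ± 0.35 (adjusted p = 0.0275)) lost the call on leaving out any of 10 and 4 of the 14 arrays, with adjusted p up to 0.12 and 0.0668. With slide as a block 9 lower and 2 higher calls were left, and 15.8% of all genes were called higher and 15.9% lower. The calls lost were those of Ltb, Tnfsf13b, Tnfsf14, Tnfsfm13, Tnfrsf1b, Tnfrsf12a, Tnfrsf13b and Tnfrsf19, with adjusted p of 0.0605 (Tnfrsf19) to 0.308 (Tnfrsf1b). Without the block the 10 scanner arrays gave 10 lower and 3 higher, beside 19.7% and 22.8% of all genes. The calls of Ltb, Tnfsf13b, Tnfsf14, Tnfrsf1b and Tnfrsf12a were lost there already, and so was that of Tnfrsf18. With normexp correction 7 lower and 3 higher calls were left, beside 18.2% and 19.7% of all genes.

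Family members that carry other symbols and genes of the pathway were described alongside. Their counts at MI 3 days stand beside the 29.8% of all tested genes called higher and 40.5% called lower, those at MI 14 days against sham beside 15.9% and 24.2%, and those between the MI times beside 33.6% and 26.9%. Of the 12 on the list, Fasl, Cd40lg, Cd70, Cd27, Edar and Eda2r were too dim to test. Of the 6 tested, 4 rose and 1 fell at MI 3 days: Relt (0.89), Ngfr (0.70), Cd40 (0.67) and Ltbr rose, and the death receptor Fas fell (-0.83 ± 0.14 (adjusted p = 0.000162)). Fas lay at 1.29, 0.80, 1.34, 0.78 and 0.93 in the MI 3 days samples, at 1.30, 1.51, 1.54, 1.32 and 1.38 in the MI 14 days samples and at 2.22, 1.74, 1.64 and 1.84 in the sham samples, with no MI sample inside the sham range. At MI 14 days 2 rose, Eda (0.87 ± 0.19 (adjusted p = 0.00324)), a ligand of epithelial appendage development, and Ngfr (0.52 ± 0.12 (adjusted p = 0.00596)), the low-affinity neurotrophin receptor, and Fas was lower (-0.45 ± 0.14 (adjusted p = 0.0278)).

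Among 6 genes of ligand and receptor shedding, 3 rose and 2 fell at MI 3 days, beside 29.8% and 40.5% of all genes. The protease Adam10 rose by 1.0 ± 0.13 (adjusted p = 1.07e-05), and the TNF convertase Adam17 fell by 0.38 (adjusted p = 0.00403). Rhbdf1 and Rhbdf2, which help Adam17 reach the cell surface, rose by 0.40 and 0.39. Timp3, an inhibitor of Adam17, differed from sham by -0.36 ± 0.13 (adjusted p = 0.0244) at MI 3 days and 0.63 ± 0.13 (adjusted p = 0.00227) at MI 14 days, lower at the first time and higher at the second. By MI 14 days 3 of the 6 genes were higher than in sham and 1 was lower (Furin, -0.57).

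Of 21 adaptors, ubiquitin enzymes and death effectors, 10 rose and 4 fell at MI 3 days, beside 29.8% and 40.5% of all genes. The median difference of the list was 0.24. Ripk3 lay at 2.60, 2.77, 2.88, 2.69 and 2.68 in the MI 3 days samples, at -0.23, -0.02, 0.49, 0.11 and 0.05 in the MI 14 days samples and at -0.30, -0.57, -0.57 and -0.36 in the sham samples. Ripk3, the kinase of necroptosis, did not overlap between the 3 groups and was 9.05-fold higher at MI 3 days (3.18 ± 0.12 (adjusted p = 6.23e-10)) and 1.45-fold higher at MI 14 days (0.53 ± 0.12 (adjusted p = 0.0055)) than in sham. Casp8, the apical caspase of death receptors, rose by 1.70 ± 0.13 (adjusted p = 1.13e-07) and Mlkl, the pore-forming effector downstream of Ripk3, by 1.58 ± 0.12 (adjusted p = 6.59e-08) at MI 3 days. Ripk1 (1.48), Tradd (1.36) and Traf1 (1.15) were also higher, while Fadd did not pass the test (-0.07 ± 0.11 (adjusted p = 0.574)). The 3 subunits of the linear ubiquitin ligase, Rnf31 (-0.44), Rbck1 (-0.22) and Sharpin (-0.30), were lower. Later, 6 of the 21 were higher at MI 14 days than in sham and 3 lower (15.9% and 24.2% of all genes), and 11 were lower than at MI 3 days (26.9%).

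In the NF-kappaB list 11 of 21 tested genes rose and 6 fell at MI 3 days, beside 29.8% and 40.5% of all genes, with a median difference of 0.31. The increases included those of Nfkbiz (1.95 ± 0.13 (adjusted p = 2.53e-08)), an inducible nuclear member of the inhibitor family, of the kinase Ikbke (1.86 ± 0.34 (adjusted p = 0.000272)) and of the inhibitor Nfkbie (1.76 ± 0.13 (adjusted p = 6.97e-08)). Bcl3, a nuclear cofactor, rose by 1.75 ± 0.14 (adjusted p = 1.77e-07). Of the subunits, Relb (0.66), Nfkb2 (0.59) and Rela (0.33) rose, Nfkb1 did not pass the test (-0.05 ± 0.15 (adjusted p = 0.794)), and Rel was too dim. Nfkbia, the main inhibitor, did not pass the test either (-0.04 ± 0.18 (adjusted p = 0.872)). Tab1 (-1.0), Tab3 (-0.59) and Map3k7 (-0.41), which form the kinase complex upstream, fell. Of the 21, 7 were higher at MI 14 days than in sham and 5 lower, beside 15.9% and 24.2% of all genes.

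Genes known to respond to TNF were mostly higher at 3 days: 12 of 15 rose and 2 fell, beside 29.8% and 40.5% of all genes, with a median difference of 2.67. Other cytokines induce these genes too. Il6 lay at 0.21, 2.26, 2.69, 1.32 and 1.02 in the MI 3 days samples, at -2.01, -1.96, -1.06, -1.45 and -1.36 in the MI 14 days samples and at -5.75, -2.91, -5.43 and -6.12 in the sham samples. The cytokine gene Il6 was higher at MI 3 days (fitted difference 6.55 ± 0.60 (adjusted p = 5.02e-07)) and at MI 14 days (3.48 ± 0.60 (adjusted p = 0.000902)) than in sham, where 1 of 4 arrays was well above background. With each sham array set no lower than the lowest signal that counted as above background, the increase was at least 45-fold at MI 3 days. At MI 14 days it was at least 5.38-fold. Ccl7 lay at 4.28, 4.17, 4.63, 4.11 and 4.28 in the MI 3 days samples, at 0.00, -0.99, -0.69, -0.69 and 0.43 in the MI 14 days samples and at -0.87, 0.00, 0.12 and -0.63 in the sham samples. The monocyte chemokine genes Ccl7 (4.63 ± 0.28 (adjusted p = 1.27e-08)) and Ccl2 (4.44 ± 0.19 (adjusted p = 8.26e-10)) rose at MI 3 days and did not pass the test at MI 14 days (-0.05 and -0.23). Ptx3, a soluble pattern recognition protein, was at least 24.4-fold higher at MI 3 days and at least 3.98-fold higher at MI 14 days than in sham. Sod2, the mitochondrial superoxide dismutase, which is also abundant in cardiomyocytes, fell by 1.47 at MI 3 days (adjusted p = 5.84e-07). Of the 15, 6 were higher at MI 14 days than in sham and 2 lower, and 11 were lower than at MI 3 days.

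**Figure D4:**
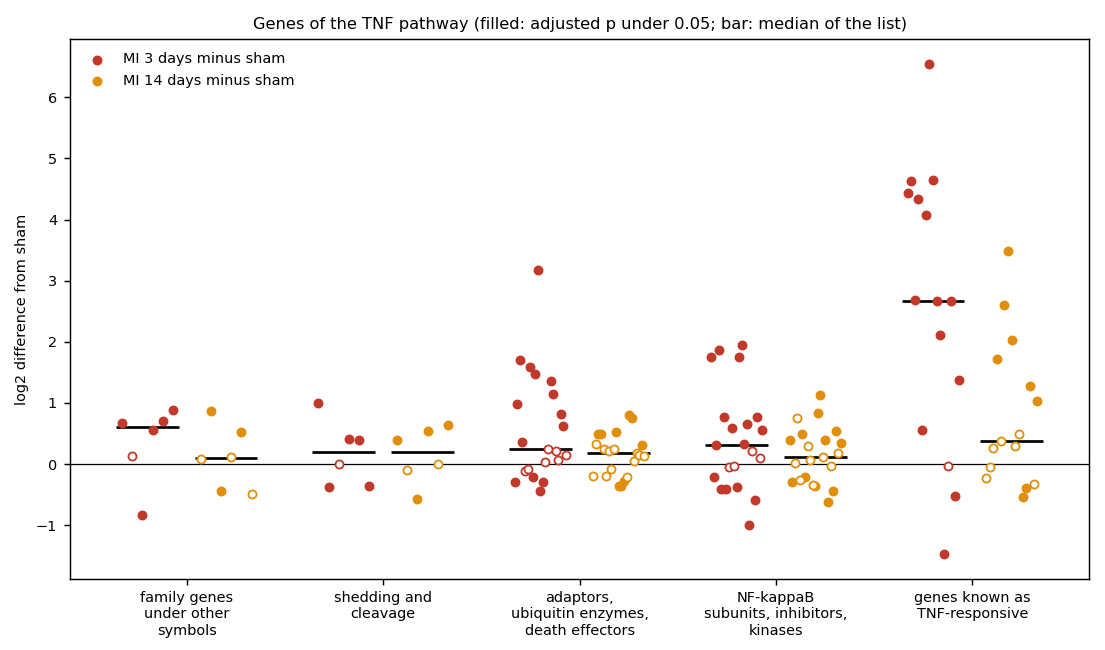
Log2 difference from sham (vertical axis) of each tested gene of 5 lists at MI 3 days and MI 14 days, with filled points past an adjusted p of 0.05 and a bar at the list's median. The TNF-responsive genes have the highest median at 3 days (2.67), against 0.37 at 14 days.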

How the data were processed

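The deposited table holds linear Cy3 intensity per probe for 14 arrays, and on 10 of them it matched the processed signal of the deposited scanner files, made per the file headers with Agilent Feature Extraction 10.7.3.1. The submitters' processing notes also name limma, with no role. Log2 of the intensity deposited by the authors was taken here, and each array's 75th percentile subtracted. The files name no gene, so symbols came from the RefSeq table of GRCm38.p6, which held 25994 of the 26444 coding accessions on the array, and the members were found by those symbols. Tnfsf13 and Tnfsf13os had no matched probe.

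Probes entered the test where all scanner arrays of 1 or more groups flagged them well above background. A limma fit (3.58.1, R 4.3.3, two-sided) covered the 3 groups, with Benjamini-Hochberg adjustment over 32257 probes. A gene was represented by its tested probe with the highest mean level. The fit was also run on simulated arrays with independent probes and far fewer changed probes than in these data. No result here rests on that run. The rule for naming genes took Tnf, Lta, Ltb, Tnfrsf1a and Tnfrsf1b, and up to 10 of the largest called differences without overlap per comparison. It also took the ligands or receptors of these and the 3 largest called differences per pathway list and comparison. Levels on each array are given for part of these genes, and not every list gene is described. Other genes of these lists that are named were chosen after their values were seen. The members, lists and tests were chosen with earlier results of these data known.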

Additional observations from a re-analysis of the deposited data

Results flagged for a closer look

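Among 81 groups of arrays (27 genes in 3 groups), 5 held an array that lay far from the rest of its group, and chance alone sets apart about 1 in 20 groups. In MI 14 days replicate 3 these were Tnfsf14 (-0.86) and Tnfrsf18 (-3.19), both higher than in the other 4 samples of the group. In MI 3 days replicate 3 they were Tnfrsf26 (-1.19) and Tnfsfm13 (2.37), both high. In sham replicate 2 it was Tnfsf14 (-3.10), again high. Without MI 14 days replicate 3 the number of genes called higher at MI 14 days than in sham was 8 in place of 11, and it was also 8 without sham replicate 3.

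Tnfrsf25 was the 1 member called in opposite directions against sham at the 2 times, and the difference between MI 14 days and MI 3 days was itself past the threshold (1.60 ± 0.16 (adjusted p = 2.96e-06), limma).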

How the results depend on the processing

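Leaving out each array in turn gave 16 to 17 members higher and 3 to 5 lower for MI 3 days against sham, 8 to 11 higher and 0 lower for MI 14 days against sham, and 4 higher and 13 to 15 lower for MI 14 days against MI 3 days. The difference of Tnf between MI 14 days and sham, which was not called, ranged from -0.062 to 0.21. The counts under scaling by tested probes, quantile normalization, no filter, the mean of a gene's probes and fits of the 2 groups compared lay within 1.5 times of those reported. With slide as a block, on the 10 scanner arrays, 2 members were lower at MI 3 days than in sham, 3 were higher at MI 14 days than in sham, and 2 were higher and 9 lower at MI 14 days than at MI 3 days. Without the block these arrays gave 3 lower, 9 higher, and 3 higher and 10 lower, in the same order. Restricting the test to probes that were bright on all 10 scanner arrays left 11 members higher and 3 lower at MI 3 days. Of all 13333 genes in that test, 29.3% were called higher and 42.5% lower. The increases of Tnf, Tnfsf8, Tnfsf14, Tnfrsf11b, Tnfrsf18 and Tnfrsf26 and the decrease of Tnfrsf19 dropped out, as these genes were dim on some arrays. The planned normexp correction of mean signals was not run, as the median signal is the one in the files used here. Normexp on the median signal, chosen after seeing the data, left 7 members higher at MI 14 days than in sham and 7 lower at MI 14 days than at MI 3 days, and the fold of 11 of 21, 3 of 11 and 8 of 19 called members (MI 3 days against sham, MI 14 days against sham, MI 14 days against MI 3 days) was smaller by more than 1.5 times. The normexp setting included the added offset of 50 and used the 10 scanner arrays. The parts of the correction, the offset and the smaller set of arrays in the smaller folds were not tested apart. The cause of the other shifts was not tested.

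Replicate numbers are shared between groups, but deviations of same-numbered samples correlated between -0.135 and 0.224, so the numbers were not taken as pairs. A fit with replicate block lost 4 calls: Tnfrsf18 (1.12, adjusted p = 0.078) and Tnfrsf4 (0.34, adjusted p = 0.0791) against sham at MI 14 days, and Ltb (-0.87) and Tnfrsf18 (-0.99) between the MI times. The differences that were not called reach at most 0.60 in size, and several changed sign under some alternative. Some alternatives called Tnfrsf14 at MI 3 days against sham, and Tnfrsf11a and Tnfsf15 between the MI times. Levels of probes near background, such as Tnf and Tnfsf8 in sham, have only bounds, which apply to the signal without normexp correction.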
